A study of Homo sapiens with 2 samples.

Results

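Keratins are the proteins that fill epithelial cells with intermediate filaments. Each filament is built from pairs, with a type II keratin joined to a type I keratin, and the pair that a cell makes marks its layer and its lineage. In the mammary gland, KRT5 and KRT14 mark the basal cells and KRT8, KRT18 and KRT19 mark the luminal cells, while other keratins are made above the basal layer of skin, under stress, in the sheath around the hair root or in the hair shaft itself. Type II genes stand side by side on chromosome 12, together with KRT18, and the other type I genes stand on chromosome 17. The keratin genes were the protein-coding genes of the GRCh38.p14 RefSeq table whose symbol is KRT followed by a number and at most 1 letter. This gave 55 of 20037 protein-coding genes, 27 on chromosome 12 and 28 on chromosome 17.

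RUNX1, a transcription factor that binds DNA with its partner CBFB, was mapped by ChIPseq in MCF10A cells, a non-tumorigenic human mammary epithelial line. Both libraries came from RUNX1-deleted MCF10A cells that had been transduced with lentivirus carrying an inducible RUNX1 and then given doxycycline at 1 µg/ml for 24 hours, so that the RUNX1 measured was the added one. In the study, an earlier ChIPseq of endogenous RUNX1 showed no strong binding. The paper names low RUNX1 expression and low antibody affinity as possible reasons. The values below therefore describe induced and not endogenous RUNX1. The knockout lines of the study were grown from single cell colonies. There was 1 immunoprecipitated library (80338845 kept tags) and 1 input library (87410774 kept tags), and no second library of either kind, so every value below describes these libraries and no test between samples could be made. No expression was measured, so basal, luminal and hair are names for classes of genes here and not for cells.

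The deposited list held 13591 peaks. Peaks were followed in the keratin genes with 5 kb on either side, and through the whole of both clusters. For each peak, the pileup is the number of extended ChIP tags over its summit, and its 95% exact Poisson interval covers counting error only. The fold enrichment is that pileup over the local input, each after adding 1, and a q-value is given as its −log10. The input level is the local background recovered from those values, with a genome-wide floor of 2.20 tags. The lowest pileup anywhere in the list was 10 tags, and what stood below the limits of the list was not analysed here.

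RUNX proteins recognise a short DNA core, searched here as TGTGGT or TGCGGT on either strand in the 250 bases before annotated gene starts. The RefSeq promoter table (GRCh38.p14) held starts for 34 of the 55 keratin genes, all on the reverse strand of the reference. The other 21, among them KRT14, KRT17, KRT18, KRT19, KRT6A and KRT86, had no entry. The core was found in 5 of 38 windows of these genes (13.2%), compared with 15.6% of 22199 windows of protein-coding genes. The stretches of 30 bases around it are shown because they are all the matches among the keratins, 5′ to 3′ on the strand of the gene. Capitals mark the core, read as TGTGGT in KRT20 and as its complement ACCACA in the others.
KRT20, chr17:40885311-40885340, core 86 bases before the start: ggcaaggtggacTGTGGTgccaatcctagt
KRT84, chr12:52385675-52385704, core 40 bases before the start: aagcctcagatcACCACAcacataaaaggg
KRT31, chr17:41397822-41397851, core 231 bases before the start: ctttgaaggcctACCACAgaactctgattt
KRT37, chr17:41424665-41424694, core 97 bases before the start: caggatgatggcACCACAacaggtagataa
KRT38, chr17:41441063-41441092, core 97 bases before the start: caggatgatggcACCACAacaggtagataa
The KRT37 and KRT38 stretches are the same letters at the same distance. Of these 5 genes, KRT20 alone had a peak in the gene or within 5 kb, and its summit lay 6008 bases downstream of the start.

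The 2 keratin genes with a summit upstream of a listed start, KRT5 and KRT85, are shown with their 250 upstream bases, neither of which holds the core. Both are on the reverse strand and are written 5′ to 3′ on that strand, ending at the base before the start. For KRT85 this is the listed start nearer to the summit.
KRT5, chr12:52520395-52520644: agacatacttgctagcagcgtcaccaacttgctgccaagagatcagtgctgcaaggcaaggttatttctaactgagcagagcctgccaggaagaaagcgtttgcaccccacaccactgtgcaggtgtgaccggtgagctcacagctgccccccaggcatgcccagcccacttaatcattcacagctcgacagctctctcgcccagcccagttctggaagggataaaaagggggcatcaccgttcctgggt
KRT85, chr12:52367482-52367731: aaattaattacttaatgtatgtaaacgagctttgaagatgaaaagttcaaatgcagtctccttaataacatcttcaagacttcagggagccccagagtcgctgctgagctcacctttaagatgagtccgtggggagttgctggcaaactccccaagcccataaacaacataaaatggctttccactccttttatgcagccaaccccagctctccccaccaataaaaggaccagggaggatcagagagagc
The nearest peak began 1235 bases beyond this stretch at KRT5 and 373 bases beyond it at KRT85, so these letters are not those of the peaks. The sequence under the peaks was not analysed here.

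RUNX1 peaks were found at 16 of the 55 keratin genes, or 29.1%, by the rule of a summit in the gene or within 5 kb. By the same rule, 24.8% of all protein-coding genes had a peak. Among the 12127 protein-coding genes whose length lies within the range of the keratins, 2.99 to 52.7 kb, the share was 17.8%. The keratin genes are short, with a median of 6.43 kb against 24.1 kb for all protein-coding genes. Of the 16 genes, 8 had 1 peak, 6 had 2 and 2 had 3. These were 21 separate peaks, of which 5 served a pair of neighbouring keratins, so the genes are not independent of each other. The summits lay inside a keratin gene for 8 peaks and beside one for 13. Counted in gene bodies alone, 7 of 55 keratin genes had a peak, a lower share than the 18.7% of all protein-coding genes. When peaks had to be enriched at least 5-fold, it was 8 of 55, slightly below the 15.4% of all protein-coding genes. With 50 kb on either side it was 48 of 55, above the 52.1% of all protein-coding genes. The keratin share thus stood above or below that of all genes depending on the rule.

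The clusters differed in their counts. On chromosome 12, 12 of 27 keratin genes (44.4%) had a peak, and on chromosome 17 it was 4 of 28 (14.3%). By the same rule it was 24.8% of all protein-coding genes. From 5 kb before the first to 5 kb past the last keratin gene, the chromosome 12 cluster (52163996 to 52957906, 0.794 Mb) held 18 peaks, a density of 22.7 per Mb (exact 95% Poisson interval 13.4 to 35.8). The density over the annotated span of chromosome 12 was 4.44 per Mb, and in the flanking 1 Mb on each side together it was 2.50 per Mb (0.812 to 5.83), from 5 peaks. The next peak outside lay 1045 kb away on the low side of the cluster and 248 kb away on the high side. All 5 flank peaks thus lay on the high side. The intervals of the chromosome 12 cluster and of its flanks did not overlap. They count each peak as separate, although some summits stand close together (555 bp apart at KRT5), and they are no test.

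The chromosome 17 cluster (40649665 to 41629575, 0.980 Mb) held 11 peaks, a density of 11.2 per Mb (5.60 to 20.1). Its chromosome had 7.15 per Mb and its flanks 11.0 per Mb (6.89 to 16.7), both inside the interval of the cluster. Its middle is filled by 34 KRTAP genes, which encode the matrix proteins between hair keratins. Of these, 4 had a peak, beside 24.8% of all protein-coding genes of any length. The whole list had 4.40 peaks per Mb of annotated chromosome. The counts of both clusters rest on 1 ChIP library, and the difference between them was not tested.

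**Figure D1:**
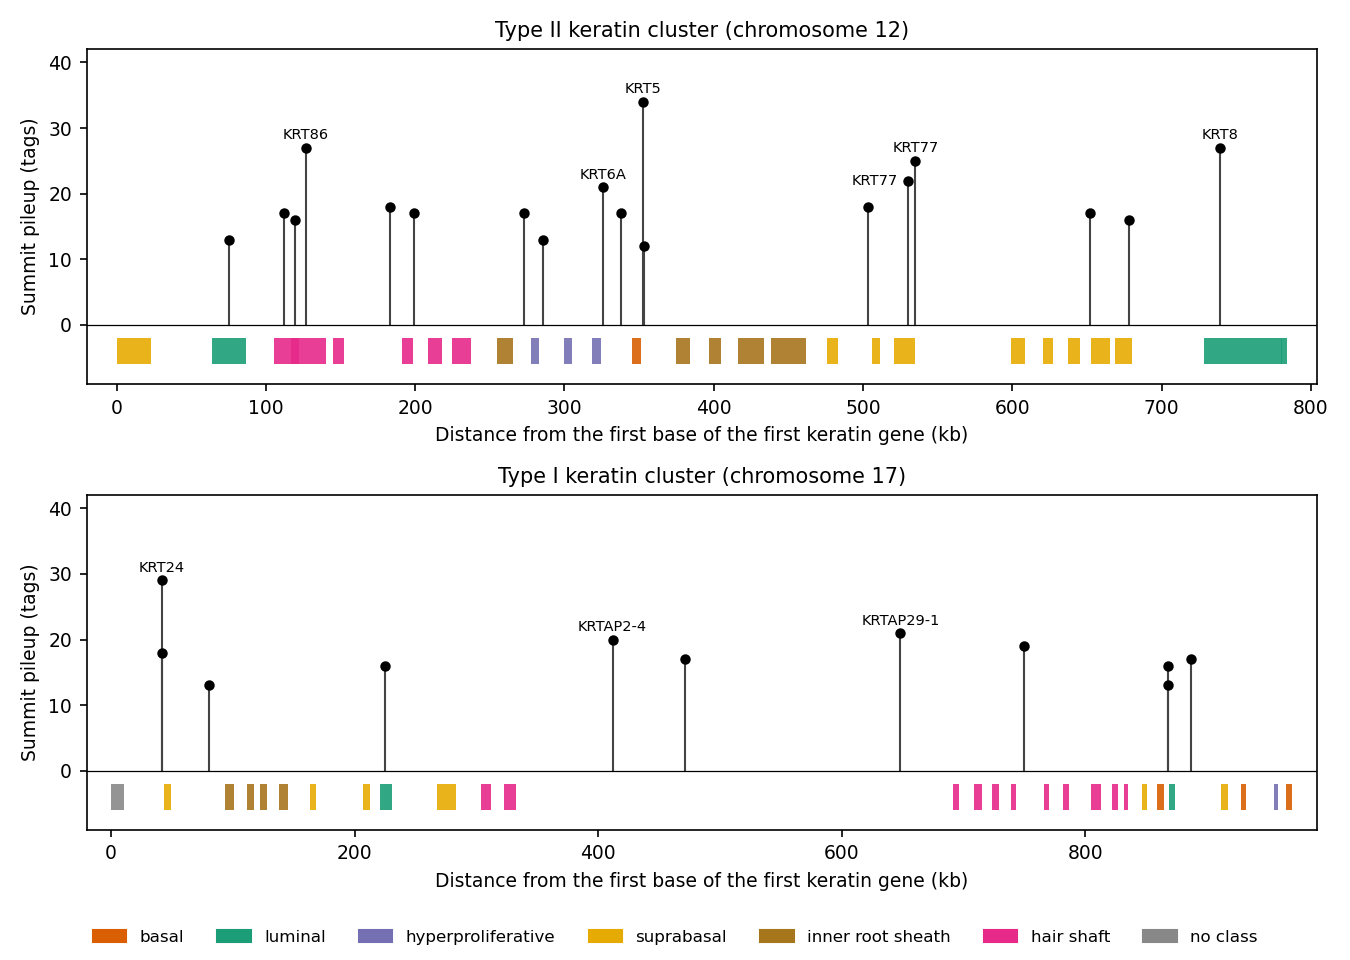
RUNX1 peaks along both keratin clusters. The horizontal axis is the distance in kb from the first base of the first keratin gene, stems give the summit pileup in tags, and coloured blocks below the line are the keratin genes by class, with the nearest protein-coding gene named for peaks of at least 20 tags. The tallest stem, 34 tags, stands beside KRT5, and the 18 peaks on chromosome 12 are spread along the cluster with an empty stretch over the inner root sheath genes that follow KRT5.

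As single peaks, the 29 in the clusters were of ordinary height. Their median pileup was 17 tags (range 12 to 34) against 18 in the whole list, their median fold enrichment 5.17 against 5.06, their median −log10 q 5.99 against 5.90 and their median width 152 bp against 153 bp. Of the 29, 16 were enriched at least 5-fold, as were 50.6% of the whole list. Among them 1, the tall KRT5 peak, passed 10-fold, compared with 3.82% of the list. The chromosome 12 peaks had a median fold enrichment of 5.31 (3.92 to 10.6) and those on chromosome 17 a median of 4.37 (3.40 to 5.86). The input level beside these values was at the genome-wide floor, within 1%, for 6 of 18 peaks on chromosome 12 and for 3 of 11 on chromosome 17, and its highest values were 2.09 and 2.92 times the floor. The part of the input level in the lower enrichments on chromosome 17 was not tested.

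**Figure D2:**
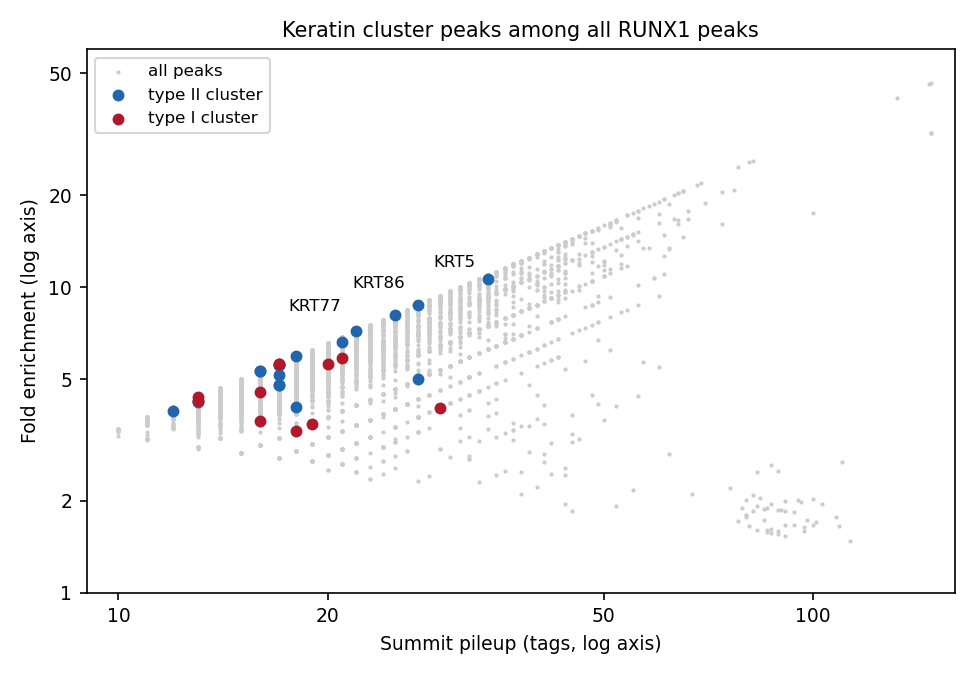
Summit pileup in tags against fold enrichment, both on log axes, for every peak of the list in grey and for the keratin clusters in colour. The keratin peaks lie between 12 and 34 tags, with 5.23% of the list taller than the tallest, and with KRT5 (34 tags, 10.6-fold), KRT86 (27 tags, 8.74-fold) and KRT77 (25 tags, 8.12-fold) along the upper edge, where the input level is lowest.

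Among the basal keratins, KRT5 and KRT15 had peaks and KRT14 and KRT17 had 0, a count of 2 of 4. The share of all protein-coding genes was 24.8%. KRT5 is the type II keratin of basal cells. Its main peak spanned 52521879 to 52522101 on chromosome 12, was 223 bp wide, and had its summit 1575 bases upstream of the start. The pileup was 34 tags (23.5 to 47.5) over an input level of 2.30 tags, with a fold enrichment of 10.6 and a −log10 q of 23.4. It was the strongest keratin peak, with rank 485 in the list, so that 3.56% of all peaks had a higher −log10 q. A weaker peak of 12 tags (6.20 to 21.0) had its summit 555 bases further upstream. Its −log10 q was 2.67, and 90.9% of the list stood above it. The intervals of these neighbouring pileups did not overlap.

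KRT14, the type I partner of KRT5 in basal cells, had no peak within 5 kb. The nearest summit lay 41.3 kb away and had 17 tags. KRT17, made in basal appendage cells and after injury, had its nearest summit 29.3 kb away, with 18 tags. KRT15, a keratin of quiescent basal cells, had 2 peaks, both in the gap between KRT15 and its neighbour KRT19. Their summits stood 3.31 and 3.71 kb past the high end of KRT15, and 1.42 and 1.02 kb below the low end of KRT19. The pileups were 13 tags (6.92 to 22.2) and 16 tags (9.15 to 26.0), with fold enrichments of 4.23 and 3.64. Since 1 pair of peaks serves a basal and a luminal gene, the counts of those classes are not separate.

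The class called luminal here takes in simple epithelial keratins, such as KRT20 of the gut. Of the mammary luminal markers named above, KRT8 and KRT19 had peaks and KRT18 had 0. KRT7 and KRT20 also had peaks, which made the class count 4 of 5, beside 24.8% of all protein-coding genes. With peaks enriched at least 5-fold the count was 1 of 5, KRT8. KRT8 is the type II keratin of luminal cells. It had 1 peak, at 52907858 to 52908111 on chromosome 12, inside the gene and 18.5 kb downstream of the start listed in the promoter table. The annotated span of KRT8 is 52.7 kb, the longest of the keratins, and reaches into KRT18. The listed start lies within that span, so the place of the summit in the gene depends on the transcript. The pileup of 27 tags (17.8 to 39.3) stood over an input level of 4.60 tags, which made it 5.00-fold enriched with a −log10 q of 8.87. The same pileup of 27 tags at KRT86, over an input level of 2.20 tags, gave 8.74-fold. KRT18, the partner of KRT8 and its neighbour on the chromosome, had its nearest summit 40.9 kb away, which is this KRT8 peak.

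KRT7, made in ducts and glands, had 1 peak inside the gene with 13 tags (6.92 to 22.2), a fold enrichment of 4.23 and a −log10 q of 3.36. KRT20, a keratin of gut epithelium and urothelium, had 1 peak inside the gene with 16 tags (9.15 to 26.0), a fold enrichment of 4.52 and a −log10 q of 4.61. It also lies within an uncharacterised non-coding gene, LOC105371777. KRT19, a luminal keratin without the tail found in other keratins, had the pair of peaks shared with KRT15. A further peak of 17 tags stood 12.7 kb past the high end of KRT19, with a fold enrichment of 5.62. The luminal peaks thus ran from 13 to 27 tags and from 3.64- to 5.00-fold, all below the main KRT5 peak.

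The hyperproliferative keratins, made in injured or fast-dividing epidermis, had peaks at 2 of 4 genes, beside 24.8% of all protein-coding genes. KRT6A had 1, of 21 tags (13.0 to 32.1), whose summit stood 1491 bases past the high end of the gene. Its fold enrichment was 6.61 and its −log10 q was 9.89. KRT6B had a peak on each side, of 17 tags at 4.81 kb below its low end and of 13 tags at 2.72 kb past its high end. KRT6C had 0, with its nearest summit 13.7 kb away, and KRT16 had 0, with its nearest 41.1 kb away. KRT6A, KRT6B and KRT6C are near copies of each other, as are KRT81 and KRT86, and how tags that match several places were handled is not given in the sources used here. A peak of 17 tags and 5.55-fold also stood between KRT6A and KRT5, 7.34 kb from KRT5.

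Of the 15 keratins classed here as suprabasal, many of them made above the basal layer of skin, mouth or cornea, 5 had a peak. That is 33.3%, beside 24.8% of all protein-coding genes. KRT77, an epidermal type II keratin, had the strongest, at 25 tags (16.2 to 36.9), 8.12-fold and a −log10 q of 14.2, with the summit 548 bases past its high end. A second KRT77 peak of 22 tags (13.8 to 33.3) and 7.18-fold lay inside the gene. Both stood at the genome-wide input floor. KRT1 had 1 peak of 18 tags with its summit 2.18 kb below its low end, over an input level of 3.68 tags. KRT78 had 1 of 16 tags inside the gene, and KRT79 had 1 of 17 tags with its summit 614 bases beyond its downstream end.

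KRT24 had 2 peaks, with 29 tags (19.4 to 41.6) and 18 tags (10.7 to 28.4). The first was the tallest of the 11 in the chromosome 17 cluster and had the highest input level of the 29. The input levels were 6.43 and 4.60 tags, and the fold enrichments were 4.04 and 3.40. Their summits lay 389 bases apart, beyond the downstream end of KRT24 and inside the non-coding gene LOC105371775. KRT10, the type I partner of KRT1, had its nearest summit 56.6 kb away.

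Hair keratins, which are cross-linked into the hard hair shaft, had a peak at 3 of 17 genes, or 17.6%. This stands beside 24.8% of all protein-coding genes and 17.8% of those within the keratin length range. All 3, KRT81, KRT86 and KRT85, are on chromosome 12. The annotated span of KRT86 covers KRT81, and both counted the same 3 peaks, of 17, 16 and 27 tags. The tallest, at 52295758 to 52295906, had an interval of 17.8 to 39.3 tags, a fold enrichment of 8.74 and a −log10 q of 16.3, the second highest among the keratins. It lay inside the annotated span of KRT86, which is 34.5 kb long and has no listed start, and 4.27 kb from KRT81. The KRT85 peak had 17 tags (9.90 to 27.2) and was 5.55-fold enriched. Its summit lay 689 bases upstream of the nearer listed start of KRT85 and 3548 bases upstream of the other. The 11 hair keratins on chromosome 17, KRT31 to KRT40, had 0 peaks within 5 kb. The nearest to any of them had 19 tags and 3.57-fold and stood 6.56 kb from KRT31. None of the 9 keratins of the inner root sheath and companion layer, KRT25 to KRT28 and KRT71 to KRT75, had a peak within 5 kb.

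**Figure D3:**
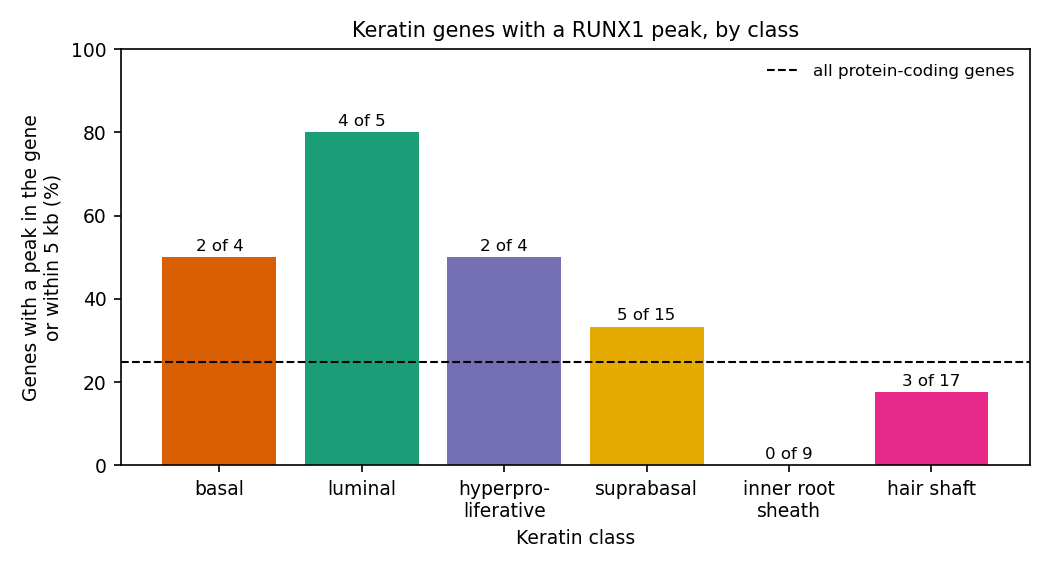
Percentage of the genes of each keratin class with a peak in the gene or within 5 kb. Numbers above the bars give genes with a peak of genes in the class, and the dashed line is the 24.8% of all protein-coding genes. Luminal keratins, with the simple epithelial KRT20 among them, stand at 4 of 5 and inner root sheath keratins at 0 of 9. However, the luminal count is 1 of 5 when peaks must be enriched at least 5-fold, classes are small and neighbours share peaks.

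Compared as classes, the basal and luminal keratins had 4 and 5 separate peaks, 2 of them in common, and the hair keratins had 4. Median pileups were 14.5, 16 and 17 tags, and maxima were 34, 27 and 27 tags. Median fold enrichments were 4.08, 4.23 and 5.43, so the hair keratins had the highest median by this measure. However, 3 of the 4 hair peaks stood at the single place of KRT81 and KRT86. Input levels were 1.04 to 1.67 times the floor for basal, 1.05 to 2.09 for luminal and 1 to 1.13 for hair peaks. The part of the input level in this order was not tested. When peaks had to be enriched at least 5-fold, 1 of 4 basal, 1 of 5 luminal and 3 of 17 hair keratins had a peak, beside 15.4% of all protein-coding genes. The basal maximum had an interval of 23.5 to 47.5 tags, which overlaps that of the luminal and hair maxima, 17.8 to 39.3. Those maxima were therefore not told apart by counting error, and the medians and shares of genes were not tested against each other.

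By filament partner, the peaks of the best-known pairs were at type II genes. Of 7 textbook pairs looked at after the values were known, KRT5 with KRT14, KRT8 with KRT18, KRT1 with KRT10, KRT6A with KRT16, KRT6B with KRT17, KRT4 with KRT13 and KRT3 with KRT12, 5 type II genes and 0 type I genes had a peak within 5 kb, beside 24.8% of all protein-coding genes. These pairs do not hold the 4 type I genes that had one, KRT15, KRT19, KRT20 and KRT24, so the count speaks for the pairs alone. The type I members had their nearest summits up to 56.6 kb away, the closest being that of KRT12. KRT18, which stands in the chromosome 12 cluster, had none either. The other type I members stand on chromosome 17, so keratin type and cluster cannot be told apart in this count.

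**Figure D4:**
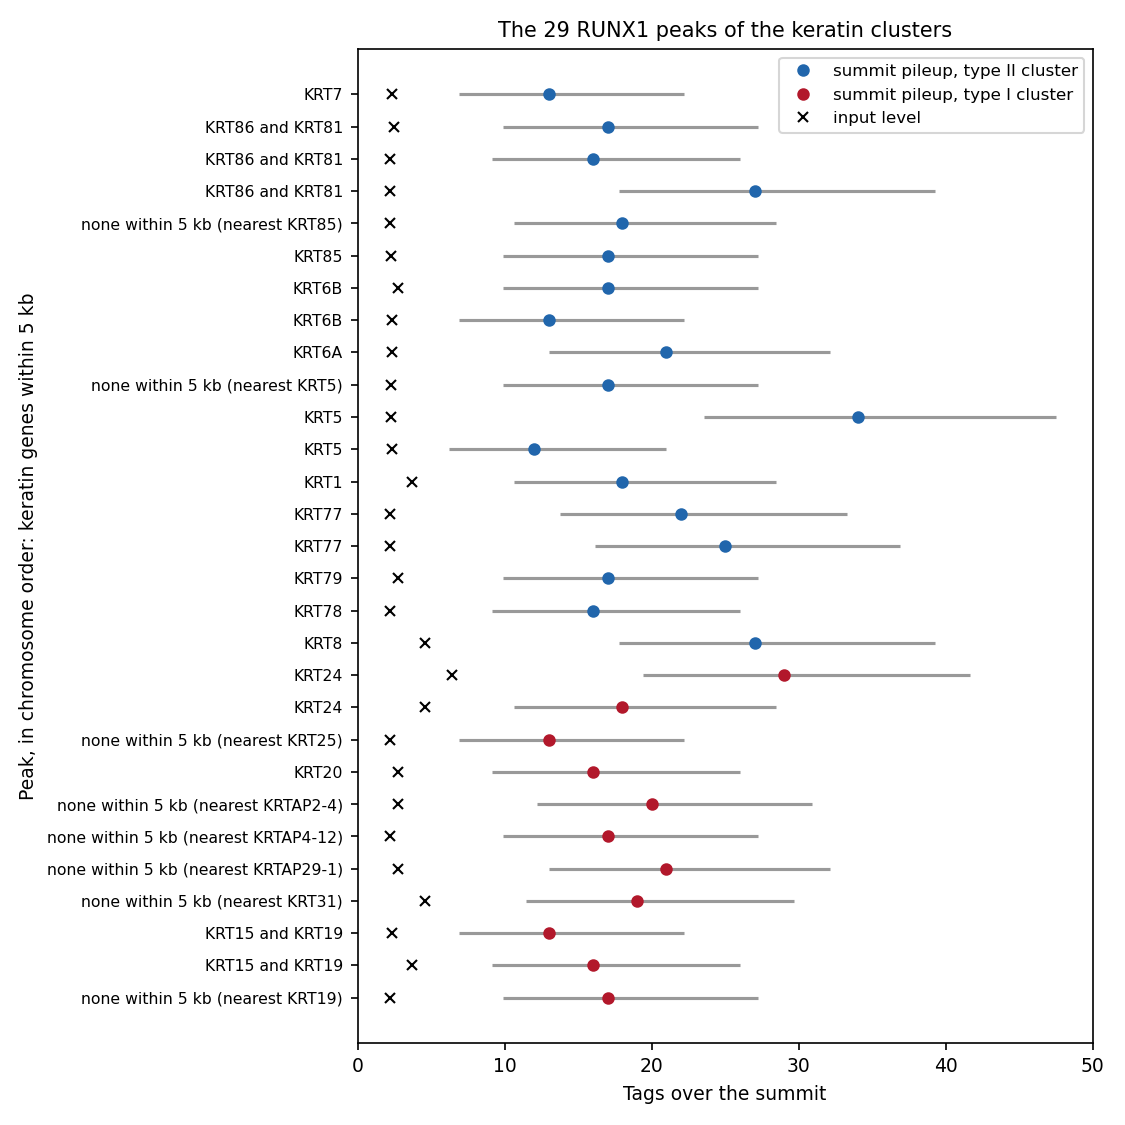
Tags over the summit for the 29 peaks of both clusters in chromosome order. Circles are pileups with their exact 95% Poisson intervals, and crosses are the input level, with each row named by the keratin genes within 5 kb. Pileups run from 12 to 34 tags and input levels from 2.20 to 6.43 tags. Every interval lies above its input level, which follows from how peaks enter the list and is no separate support.

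Of the 39 keratin genes without a peak within 5 kb, 4 had a summit within 10 kb. These were KRT31 (6.56 kb), KRT4 (6.68 kb), KRT75 (7.48 kb) and KRT84 (9.64 kb). Just inside the 5 kb limit lay summits of KRT81 (4.82 and 4.27 kb) and KRT6B (4.81 kb). The farthest was KRT40, with its nearest summit 79.3 kb away. The 8 cluster peaks over 5 kb from every keratin had 13 to 21 tags. Their nearest protein-coding genes were KRT85, KRT5, KRT25, KRT31, KRT19, KRTAP2-4, KRTAP4-12 and KRTAP29-1. The tallest of these peaks, inside KRTAP29-1, had 21 tags (13.0 to 32.1) and a fold enrichment of 5.86. The peak nearest KRT85 had 18 tags and the highest fold enrichment of the 8, 5.93.

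Intermediate filament genes outside the keratins had a peak at 5 of 16, or 31.2%. LMNA, which encodes the lamins A and C of the nuclear envelope, had the strongest, at 42 tags (30.3 to 56.8) and 10.9-fold. VIM, the filament protein of mesenchymal cells that MCF10A cells also make, had 2 peaks, the best with 27 tags (17.8 to 39.3) and 8.74-fold, the same values as the KRT86 peak. BFSP1 and BFSP2, of the eye lens, had best peaks of 31 and 13 tags, and INA, of neurons, had 16 tags. Of 10 linker genes that tie keratin filaments to junctions and to other filaments, 5 had a peak. PLEC had 10 peaks, the best with 36 tags (25.2 to 49.8) and 11.6-fold, with input levels of 1 to 2.92 times the floor. Its neighbour EPPK1 had 2, DST 1, PPL 1 and PKP1 1, whereas DSP, EVPL, PKP2, PKP3 and JUP had 0. The linker genes are long, with a median of 47.3 kb, and both lists are set beside the same 24.8% of all protein-coding genes. Of the filament genes, LMNA, BFSP1 and BFSP2 are 57.5, 75.3 and 75.2 kb long, against a median of 12.8 kb for their list. With peaks enriched at least 5-fold, the counts were 3 of 16 filament and 4 of 10 linker genes, beside 15.4% of all protein-coding genes.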

How the data were processed

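The authors deposited 1 peak list, made with MACS 2.1.2 at a q limit of 0.05 from 1 RUNX1 ChIP library against 1 input library. The submitters' processing notes name Bowtie2 and hg38. Per the file headers, tags of 54 bp were extended to 74 bp, 1 tag per position was kept (80338845 of 89501295 ChIP tags, 87410774 of 94686274 input tags), with the larger library scaled down. In the deposited list, the pileup is a signal in tags, the fold enrichment is a ratio, and q is given as −log10. Each was used as given. The input level was recovered as the pileup plus 1 over the fold enrichment, minus 1. Its floor is kept ChIP tags times 74 bp over the effective genome size of 2.7 Gb.

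Summits were assigned to genes of the RefSeq GRCh38.p14 table on chromosomes 1 to 22, X and Y with 5 kb on either side. The table gives no exons, so exons and introns were not told apart. Starts and strands came from the RefSeq promoter table, with 34 of 55 keratins matched by gene ID. Python 3.11.15, pandas 2.3.3 and scipy 1.17.1 were used, and the assignment was tested on simulated peaks. With 1 library of each kind no test between samples was made; intervals are exact 95% Poisson intervals and cover counting error only. Named were every keratin with a peak, the listed basal and luminal keratins whatever they showed, the nearest gene of other cluster peaks, and the context genes with a peak. The keratin pairs, the KRTAP and pseudogene counts and other names were chosen after values were seen. Members, classes and lists were chosen with earlier results of these data known. Alternatives were gene bodies alone, 50 kb flanks, a stricter q limit (0.01), peaks enriched at least 5-fold, overlap of any base, merging of peaks within 1 kb and clusters without flanks.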

Additional observations from a re-analysis of the deposited data

How the results depend on the processing

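Over 8 counts, 46 alternatives were run, and 34 left the count within 1.5 times. Of the other 12, those on the keratins were as follows. With a fold enrichment of at least 5, keratin genes with a peak went from 16 to 8 of 55, slightly below the 15.4% of all protein-coding genes. Basal ones went from 2 to 1, luminal from 4 to 1 and peaks in the chromosome 17 cluster from 11 to 4. Weaker peaks are dropped by construction. With gene bodies alone, keratin genes with a peak were 7 of 55, below the 18.7% of all protein-coding genes, and basal ones 0. With 50 kb on either side, keratin genes with a peak were 48 of 55 (all protein-coding genes 52.1%), basal ones 4 and hair ones 14. The wider window spans neighbouring genes. The other 3 moved counts were of the context lists, whose alternatives were added after seeing the data. Hair keratins kept the same 3 genes at a fold enrichment of at least 5, and the chromosome 12 cluster held 12 to 18 peaks under its alternatives. No paired analysis was possible because the ChIP and the input each had 1 library. Depth limits single heights: a pileup of 13 tags has an interval of 6.92 to 22.2.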

Other observations

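Both KRT8 and KRT18 have many processed copies elsewhere in the genome. Of 120 KRT8 and KRT18 pseudogenes in the RefSeq table, 6 had a peak in the gene or within 5 kb, or 5.00%, beside 4.63% of all 15580 genes annotated as pseudogenes. Of 94 KRTAP genes on all chromosomes, 7 had a peak (7.45%), 4 of them in the chromosome 17 cluster, beside 24.8% of all protein-coding genes. That 24.8% takes in genes of every length, and no share of genes as long as the KRTAP genes was counted. These counts were made after the keratin values were seen, and the KRTAP genes stand close together and can share a peak.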
